A study of Mus musculus with 4 samples.

Results

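The 10 genes described here mark reactive glia, the state that Müller glia and astrocytes of the retina enter after injury. They were chosen by gene name, with earlier results of these data known but no threshold on a measured value. All 10 of them were found among the 19421 genes measured, each by a single probe set. They fall into filament markers (Gfap, Vim, Nes), secreted markers (A2m, Serpina3n, Lcn2, Timp1, Cp) and surface markers (Cd44, S1pr3), and the 7 secreted and surface markers were compared with the filament markers. The knockout group held mice with Nrl flox on both alleles (Nrlflox/flox; CAG-CreERTM) and the control group mice with one floxed and one intact allele (Nrlflox/+; CAG-CreERTM). Both groups carried the tamoxifen-dependent Cre under the CAG promoter, which is broadly active and not restricted to rods, and controls also held a floxed copy exposed to Cre. All mice of both groups were given 4-hydroxytamoxifen intraperitoneally each day from postnatal day 42 to 44, and whole retina was taken at postnatal day 63, 19 days after the last dose. Each group had 2 pools of total RNA, each from 4 retinas of 2 animals, on 1 microarray per pool.

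Nrl is a transcription factor that rods need to keep their identity, and it is not known as a glial gene. When photoreceptors are stressed, Müller glia fill with intermediate filaments, of which GFAP and vimentin are the best known, and release acute phase proteins and protease inhibitors. Cytokines that signal through gp130 and STAT3 are known to drive part of this programme. Several of the 10 genes belong to the set described as shared by reactive astrocytes of mouse brain after different injuries.

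Array values are log2 signals as the authors deposited them, with array medians between 5.99 and 6.04 and correlations of arrays across probe sets (Pearson's r) between 0.987 and 0.990. A difference of log2 values is a log2 fold change, always knockout minus control. A gene was called where its limma p, adjusted by Benjamini-Hochberg over all 19421 genes, lay under 0.05, and the standard error is limma's moderated one. No detection call came with the values, so a low signal cannot be told from background, and the number of arrays limits every value. The targeted gene, Nrl, had 7.57 and 7.05 in the knockout pools against 8.21 and 8.13 in the control pools (log2 fold change −0.86, limma adjusted p = 0.289). Xist was near 4 in replicate 1 of both groups (4.07 in knockout, 4.09 in control) and above 10 in replicate 2 (10.66 in knockout, 10.47 in control), so replicate number moved with the sex of the animals, and each change is given within both replicate numbers below.

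Of the 10 genes, 1 rose, A2m, 0 fell and 9 did not pass, in a comparison in which 0.201% of all genes were called, 27 of them (0.139%) higher and 12 (0.0618%) lower. The log2 fold change lay above 0 in 9 of 10, against 49.0% of all genes, and below 0 in Nes. Its median was 0.63, against −0.0026 over all genes. Both knockout pools lay above both control pools in 9 of the 10, as they did in 17.0% of all genes. At an unadjusted limma p under 0.05, 8 of the 10 were higher, against 3.71% of all genes. Since the 10 genes were chosen with earlier results known, these shares describe them and are no independent test. The genes with the largest changes were the inhibitors A2m and Serpina3n, with 2.71-fold and 2.84-fold the control signal, and those with the smallest were Timp1 and Nes. In whole retina, more glial cells, more RNA per glial cell and RNA from other cell types cannot be told apart.

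**Figure D1:**
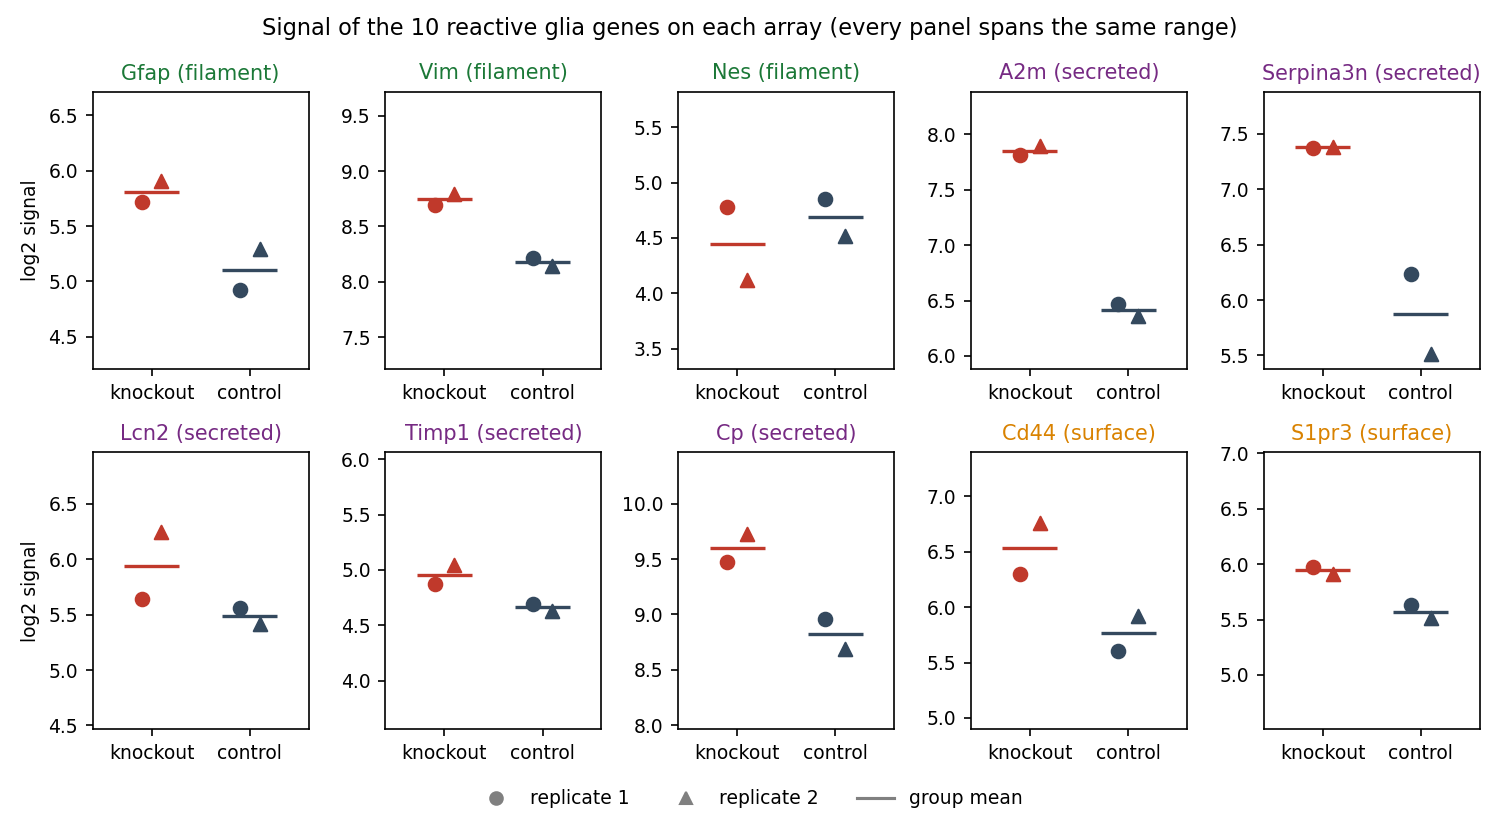
Log2 signal of the 10 genes on each array, knockout left and control right in every panel, with circles for replicate 1, triangles for replicate 2 and lines for group means (n = 2 each). The knockout points sit above the control points in every panel except Nes, where the groups overlap, and the gap is widest for A2m and Serpina3n.

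Among filament markers, Gfap and Vim were higher in both knockout pools without being called, and Nes overlapped between the groups. Gfap encodes the glial fibrillary acidic protein, which astrocytes make at rest and Müller glia make when reactive. It had log2 signals of 5.72 and 5.91 in the knockout pools, against 4.92 and 5.29 in the control pools. Both knockout pools lay above both controls, and the gap between the lower knockout and the higher control was close to the spread within the control pair. Its mean was 5.81 ± 0.14 in knockout and 5.11 ± 0.26 in control (SD, n = 2 each). This is a log2 fold change of 0.70 (SE 0.15, 95% interval 0.33 to 1.08, limma adjusted p = 0.317), or 1.63-fold. The difference was 0.79 in replicate 1 and 0.61 in replicate 2.

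Vim encodes vimentin, the filament that Müller glia hold at rest as well as after injury. It had 8.70 and 8.79 in the knockout pools, against 8.22 and 8.14 in the control pools. The groups stood clearly apart relative to the spread within each, 8.75 ± 0.07 in knockout and 8.18 ± 0.05 in control (SD, n = 2 each). Vimentin signal thus differed by 0.56 on the log2 scale (SE 0.10, 95% interval 0.32 to 0.81, limma adjusted p = 0.219), or 1.48-fold, with 0.48 and 0.65 in replicates 1 and 2. Vim is also made by microglia and vascular cells, whose markers are given below.

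Nes encodes nestin, a filament of neural progenitors that is also found in reactive glia. It had 4.78 and 4.12 in the knockout pools, against 4.85 and 4.52 in the control pools. The groups overlapped, and the spread within the knockout pair (SD 0.47) exceeded the difference between the means. Nestin signal differed by −0.24 on the log2 scale (SE 0.23, limma adjusted p = 0.912). Its 95% interval of −0.80 to 0.32 excluded neither a fall nor a modest rise. Without knockout replicate 2 the difference was 0.09. The Nes probe set had a mean signal at percentile 15.5 of all genes, the dimmest of the 10, where background may make up much of the value. Percentiles of signal here describe how bright a probe set was and do not rank transcripts by abundance.

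Gfap and Vim were thus higher in both knockout pools, Nes overlapped between the groups, and none of the 3 was called. The 250 bases upstream of the annotated start of each of these filament genes are shown. They come from RefSeq on GRCm38.p6 and read 5′ to 3′ on the gene's strand, with capitals on the motif matches described further below. The windows are chr11:102897201-102897450, minus strand for Gfap, chr2:13574061-13574310, plus strand for Vim, and chr3:87970843-87971092, plus strand for Nes.
Gfap: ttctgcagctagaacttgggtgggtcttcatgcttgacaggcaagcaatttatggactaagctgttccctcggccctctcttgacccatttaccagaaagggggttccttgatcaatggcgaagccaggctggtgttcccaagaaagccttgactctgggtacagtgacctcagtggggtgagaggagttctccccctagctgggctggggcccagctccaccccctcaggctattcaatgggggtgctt
Vim: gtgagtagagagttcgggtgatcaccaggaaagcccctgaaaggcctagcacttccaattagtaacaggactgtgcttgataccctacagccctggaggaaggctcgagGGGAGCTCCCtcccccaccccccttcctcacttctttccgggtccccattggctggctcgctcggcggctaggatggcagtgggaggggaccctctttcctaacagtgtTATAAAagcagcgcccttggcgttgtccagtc
Nes: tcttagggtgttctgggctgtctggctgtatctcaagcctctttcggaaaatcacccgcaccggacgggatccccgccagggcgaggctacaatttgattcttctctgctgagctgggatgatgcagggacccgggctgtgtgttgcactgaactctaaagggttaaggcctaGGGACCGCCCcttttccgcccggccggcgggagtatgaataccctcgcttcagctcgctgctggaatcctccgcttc
Gfap holds no match to the motifs searched, Vim holds a TATA box and an NF-κB type match, and Nes an NF-κB type match.

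The secreted markers held both the called gene and the gene with the largest change. A2m encodes α2-macroglobulin, a broad protease inhibitor that traps its targets and is cleared through the receptor LRP1. It had 7.81 and 7.89 in the knockout pools, against 6.47 and 6.36 in the control pools. The gap between the groups exceeded the SD within either many times over. Its mean was 7.85 ± 0.06 in knockout and 6.41 ± 0.07 in control (SD, n = 2 each). A2m rose by a log2 fold change of 1.44 (SE 0.10, 95% interval 1.19 to 1.69, limma adjusted p = 0.0176), the 18th highest of all genes, with 1.35 and 1.53 in replicates 1 and 2. With any array left out the change stayed between 1.39 and 1.49, but the call was lost each time. Such fits called few genes of any kind, as given in the last section. With replicate number, which moved with sex, as a further term, the limma adjusted p was 0.0623 and A2m was not called.

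Serpina3n, a serine protease inhibitor of the acute phase response and a widely used marker of reactive astrocytes in mouse, had a slightly larger change and was not called. It had 7.38 and 7.38 in the knockout pools, against 6.24 and 5.51 in the control pools. The knockout pools were alike, while the control pools differed by more than for any other member. Its mean was 7.38 ± 0.01 in knockout and 5.87 ± 0.51 in control (SD, n = 2 each). Its log2 fold change was 1.50 (SE 0.23, 95% interval 0.95 to 2.06, limma adjusted p = 0.131), the 14th highest of all genes. The difference was 1.14 in replicate 1 and 1.87 in replicate 2, and the fold change was 1.87 without control replicate 1 and 1.14 without control replicate 2. The gene was called when genes with a mean signal in the lower 50% were left out (limma adjusted p = 0.0394) and with a trend of variance on signal (limma adjusted p = 0.0226). Serpina3n belongs to a cluster of near relatives, and hybridisation shared with them was not tested. Of the relatives listed, Serpina3a and Serpina3b were measured, at log2 fold changes of 0.11 and −0.19.

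The upstream window of Serpina3n is shown as that of the gene with the largest change, at chr12:104406458-104406707, plus strand of GRCm38.p6 (RefSeq).
Serpina3n: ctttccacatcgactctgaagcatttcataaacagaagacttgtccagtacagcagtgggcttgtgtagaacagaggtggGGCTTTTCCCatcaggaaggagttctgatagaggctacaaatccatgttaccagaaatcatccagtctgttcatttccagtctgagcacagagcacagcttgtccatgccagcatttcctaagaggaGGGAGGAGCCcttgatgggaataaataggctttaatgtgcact
It holds a pair of NF-κB type matches, in capitals, and no match to the other motifs.

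Cp encodes ceruloplasmin, a copper-binding ferroxidase that retinal glia make and that helps export iron. It had 9.47 and 9.73 in the knockout pools, against 8.96 and 8.69 in the control pools. The groups did not overlap, at 9.60 ± 0.18 in knockout and 8.82 ± 0.19 in control (SD, n = 2 each). The log2 fold change was 0.78 (SE 0.14, 95% interval 0.43 to 1.12, limma adjusted p = 0.231), or 1.71-fold, and the difference was 1.04 in replicate 2 but 0.51 in replicate 1. With the variance trend, Cp and Vim were called too (limma adjusted p = 0.0334 for Cp and 0.0238 for Vim).

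Lcn2 encodes lipocalin 2, a carrier of bacterial iron chelators that reactive astrocytes and neutrophils release. It had 5.64 and 6.25 in the knockout pools, against 5.56 and 5.41 in the control pools. Knockout replicate 2 stood high and knockout replicate 1 lay next to the controls. Its fold change on the log2 scale was 0.46 (SE 0.20, 95% interval −0.04 to 0.95, limma adjusted p = 0.739), made up of 0.08 in replicate 1 and 0.83 in replicate 2. Without knockout replicate 2 it was 0.15.

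Timp1 encodes a secreted inhibitor of matrix metalloproteinases and lies on the X chromosome. It had 4.87 and 5.04 in the knockout pools, against 4.69 and 4.63 in the control pools. The groups did not overlap, and their gap was small. The groups differed by 0.29 on the log2 scale (SE 0.11, 95% interval 0.03 to 0.56, limma adjusted p = 0.655), with 0.18 in replicate 1 and 0.41 in replicate 2. Its probe set had a mean signal at percentile 19.1 of all genes.

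Both surface markers were higher in the knockout pools and neither was called. Cd44, the receptor for hyaluronan, had 6.30 and 6.76 in the knockout pools, against 5.61 and 5.92 in the control pools. Within each group replicate 2 was the higher pool, and the groups did not overlap. The log2 fold change was 0.77 (SE 0.18, 95% interval 0.32 to 1.21, limma adjusted p = 0.399), or 1.70-fold, with 0.70 and 0.84 in replicates 1 and 2. S1pr3, a receptor for sphingosine 1-phosphate, had 5.98 and 5.91 in the knockout pools, against 5.63 and 5.51 in the control pools. The pools of each group were close together. The log2 fold change was 0.37 (SE 0.10, 95% interval 0.12 to 0.62, limma adjusted p = 0.504), at 0.34 and 0.40 in replicates 1 and 2.

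**Figure D2:**
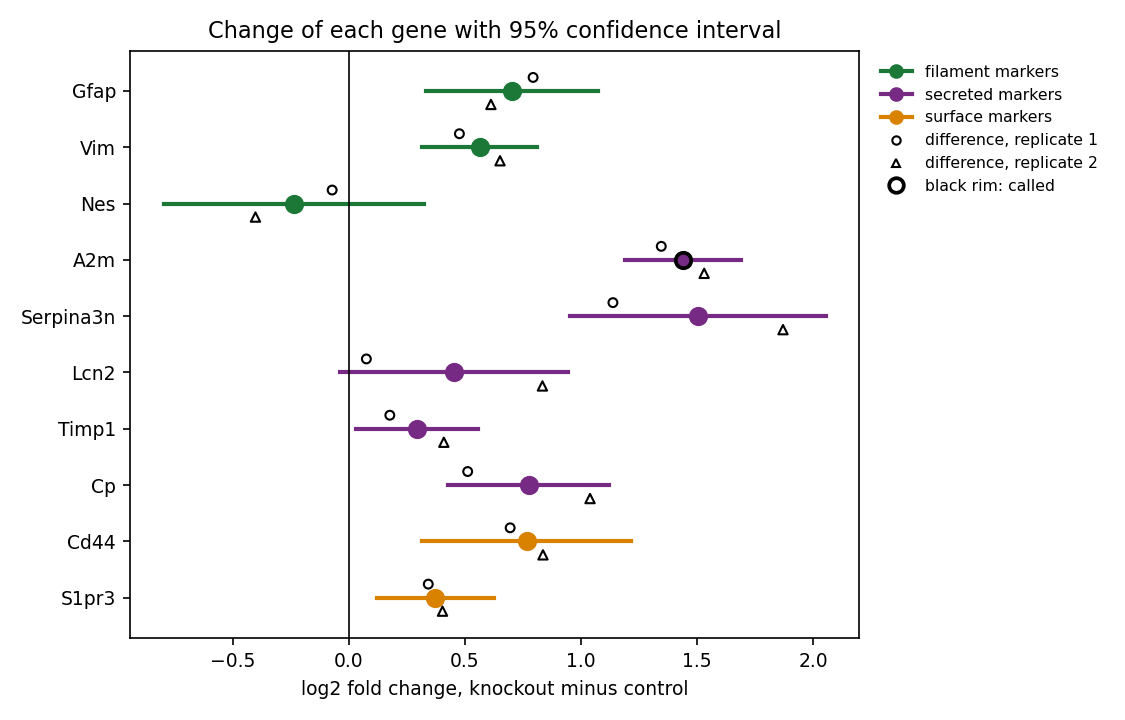
Log2 fold change of each gene, knockout minus control, with its 95% limma confidence interval (filled point and bar, n = 2 each), and the difference within replicate 1 (open circle) and replicate 2 (open triangle). A2m, with the black rim, is the called gene at 1.44, and the intervals of Nes and Lcn2 include 0.

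The difference in replicate 2 exceeded that in replicate 1 in 8 of the 10 genes, Gfap and Nes being the exceptions. The gap between replicates was widest for Lcn2 and Serpina3n, and narrowest for S1pr3. The part of sex in this was not tested.

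Secreted and surface markers were then set against filament markers. The mean log2 signal of the 7 secreted and surface genes was 6.78 and 6.99 on the knockout arrays, against 6.17 and 6.01 on the control arrays. That of the 3 filament genes was 6.40 and 6.27 on the knockout arrays, against 6.00 and 5.99 on the control arrays. The mean change was thus 0.80 for secreted and surface genes and 0.34 for filament genes, a difference of 0.46 on the log2 scale. The median change was 0.77 for secreted and surface genes and 0.56 for filament genes. Secreted and surface minus filament mean was 0.38 and 0.72 in the knockout pools, against 0.17 and 0.02 in the control pools. The groups did not overlap, with both knockout pools above both control pools, as in 17.0% of all genes taken singly. The difference of changes was 0.21 in replicate 1 and 0.70 in replicate 2. No p is given for it, since the genes were chosen with results known.

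The gap between the classes rested on few genes. Without Nes the filament mean change was 0.63 and the difference 0.17, at −0.02 in replicate 1 and 0.36 in replicate 2. Without A2m and Serpina3n the secreted and surface mean change was 0.53 and the difference 0.19. With all 3 of these genes left out, the mean change was 0.53 for secreted and surface genes and 0.63 for the filament genes Gfap and Vim, a difference of −0.10. These selections were made after the values were seen. The change of Gfap (0.70) and of Vim (0.56) lay inside the range of the secreted and surface genes, 0.29 to 1.50.

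**Figure D3:**
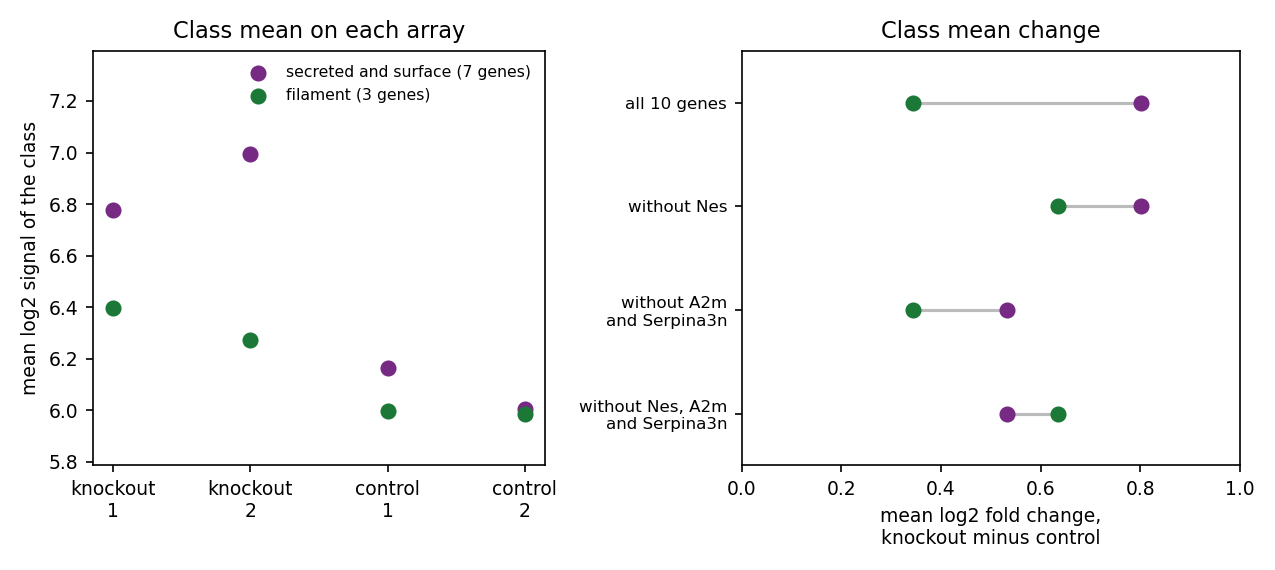
Left, mean log2 signal of 7 secreted and surface genes (purple) and 3 filament genes (green) on each array, where heights of the 2 classes come from different probe sets and only their movement between arrays can be compared. Right, mean log2 fold change of each class, knockout minus control, with all 10 genes and with the named genes left out: the distance between the classes is 0.46 with all 10 and turns to −0.10 without Nes, A2m and Serpina3n.

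Other genes of the same programme showed where the members stood. Among 14 other intermediate filament, lamin and linker genes, 0 were called, 5 lay above 0 and 9 below, and the median log2 fold change was −0.07. Krt18, a keratin of simple epithelia, had 0.45 (SE 0.13, limma adjusted p = 0.510) and Plec, which links filaments to junctions, 0.27 (SE 0.10, limma adjusted p = 0.650). The neurofilament genes Nefl, Nefm and Nefh, which mark ganglion and horizontal cells, had −0.08, −0.16 and −0.18.

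Of 5 other genes described as common to reactive astrocytes, 1 rose and 4 did not pass, with a median of 0.43. Osmr, the oncostatin M receptor, had 6.98 and 7.14 in the knockout pools, against 5.66 and 5.86 in the control pools, and rose by 1.30 (SE 0.12, limma adjusted p = 0.0294). Steap4, a metalloreductase, had 0.64 (SE 0.16, limma adjusted p = 0.453). Genes reported in mouse brain as raised by inflammation or by ischaemia had no call, with medians of 0.19 over 6 measured genes and 0.01 over 11. In the first list Serping1, the C1 inhibitor, had 0.99 (SE 0.13, limma adjusted p = 0.0901) and Psmb8, an immunoproteasome subunit, 0.41 (limma adjusted p = 0.603). In the second, B3gnt5, a glycosyltransferase, had 0.55 (limma adjusted p = 0.260) and Ptx3, a pentraxin, −0.56 (limma adjusted p = 0.545).

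Of 16 measured regulators upstream of these genes, 3 rose, 0 fell and 13 did not pass, with a median of 0.36. Besides Osmr these were Stat3, the transcription factor of gp130 signals, by 1.08 (SE 0.10, limma adjusted p = 0.0271), and Cebpd, an acute phase transcription factor, by 1.40 (SE 0.15, limma adjusted p = 0.0402). These 3 calls were also lost with any array left out, where few genes of any kind were called. They were lost too with replicate number as a further term. Fgf2 had the largest change of the 16 regulators, 1.64 (SE 0.22, limma adjusted p = 0.102), and was not called. Of the 16, 13 lay above 0 and 3 below. Partners and receptors of the members had 0 calls among 18, with a median of 0.04. Msn, which encodes moesin and ties CD44 to the actin cortex, had 0.56 (SE 0.14, limma adjusted p = 0.392), and Has2, a hyaluronan synthase, 0.28 (limma adjusted p = 0.653). Near relatives of the secreted members had 0 calls among 8, with a median of 0.02. Mug1, a macroglobulin like A2m, had −0.29 (limma adjusted p = 0.705) and Serpina3b −0.19 (limma adjusted p = 0.862).

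**Figure D4:**
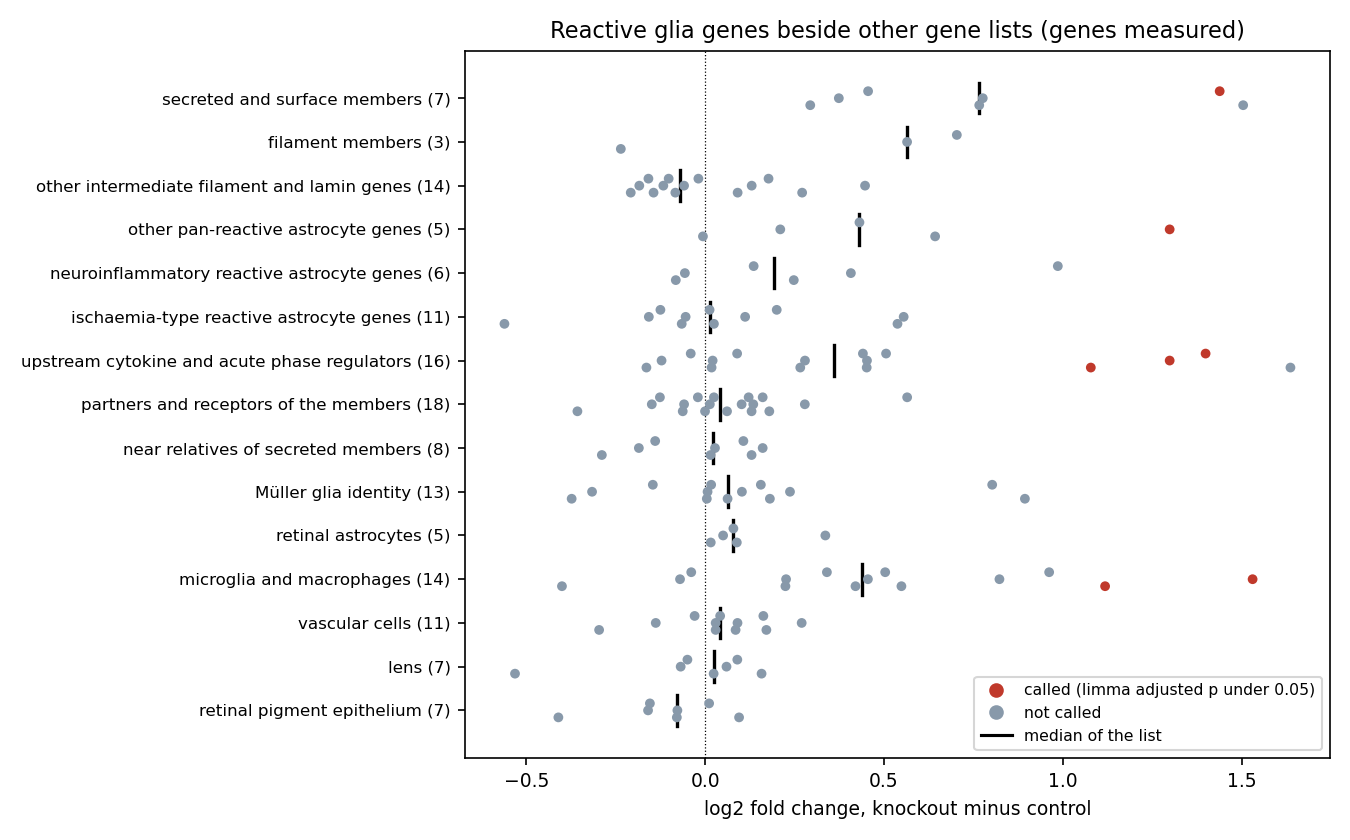
Log2 fold change, knockout minus control, of each measured gene in the secreted and surface and the filament groups and in 13 other lists, with the number of measured genes in brackets, red for called genes and a black line for the list's median. The medians of the secreted and surface genes (0.77) and of the filament genes (0.56) lie to the right, with those of the microglia (0.44), other pan-reactive (0.43) and upstream (0.36) lists next.

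Markers of the cells that can make these transcripts were read on the same arrays. Identity genes of Müller glia had 0 calls among 13, with a median of 0.06, and the mean log2 signal of the list was 7.61 and 7.55 in the knockout pools, against 7.47 and 7.43 in the control pools. Glul, glutamine synthetase, had −0.37 (limma adjusted p = 0.518) and Rlbp1, a retinoid carrier, −0.32 (limma adjusted p = 0.783). Clu, or clusterin, had 0.89 (limma adjusted p = 0.0583) and Crym 0.80 (limma adjusted p = 0.0965). Both were called with the variance trend and when genes with a mean signal in the lower 50% were left out. Of the 13 identity genes, 10 lay above 0 and 3 below. The next largest change was 0.24, of Apoe, so the higher mean signal of the list rested largely on Clu and Crym. The 5 markers of retinal astrocytes had a median of 0.08 and no call, with Gjb6, a connexin, at 0.34 and Aldh1l1 at 0.08.

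Microglial and macrophage markers were higher on average and did not all go one way. Of 14 measured, Ctss rose by 1.53 (limma adjusted p = 0.0327) and Tyrobp by 1.12 (limma adjusted p = 0.0347), 0 fell and 12 did not pass. Both calls were lost with any array left out, where few genes of any kind were called. They were lost too with replicate number as a further term. The median was 0.44, and 11 lay above 0. The 3 below 0 were Tmem119, a marker of resident microglia, at −0.40 (limma adjusted p = 0.403), Trem2 at −0.07 and Itgam at −0.04. The mean log2 signal of this list was 6.18 and 6.19 in the knockout pools, against 5.66 and 5.76 in the control pools. The groups did not overlap, where 17.0% of all genes taken singly had both knockout pools above both control pools. Aif1, which encodes Iba1, had 0.96 (limma adjusted p = 0.0912). Myeloid cells can make Vim, Cd44, Lcn2 and Timp1, and their part in the changes of these genes was not tested.

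Markers of vascular cells, which can make Vim, Nes and S1pr3, had 0 calls among 11 and a median of 0.04. Their mean log2 signals were 5.78 and 5.84 in the knockout pools, against 5.75 and 5.80 in the control pools. Pecam1 had −0.30 and Rgs5, a pericyte gene, 0.27. Markers of the lens, which can also hold Vim, had a median of 0.02 over 7 genes, with Crygs at −0.53 and Bfsp1 at 0.16. Markers of retinal pigment epithelium had a median of −0.08 over 7 genes, with Rpe65 at −0.41 and Ttr, which the epithelium secretes, at −0.15. None of these 3 lists held a gene called by limma, against 0.201% of all genes. At an unadjusted limma p under 0.05 the single gene was Crygs, which was lower, as were 654 of all 19421 genes. The part of vascular, lens and pigment epithelium cells in the changes of the members was not tested.

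The upstream windows of the members were searched on both strands for elements bound by factors of this programme. The search covered 9 of the 10 genes, with 10 windows in all since Cp has a pair of them. The upstream window of A2m, the called gene, was not analysed here. The STAT element TTCNNNGAA was in 0 of the 10 windows, against 7.02% of all 32851 windows of the same length. The AP-1 element TGANTCA was in 1, of Cp, against 6.75%. The C/EBP element TTGCNNAA was in 2, of Lcn2 and Cp, against 9.56%. A reduced NF-κB element, GGGA and CC with 4 bases of any kind between them, was in 4, of Vim, Nes, Serpina3n and Cp, against 17.6%. The TATA box TATAAA was in 2, of Vim and Cp, against 12.4%. The strict STAT form TTCCNGGAA, which is part of the wider one, was in 0, against 0.913%. These matches are letters in a short window. They show no binding, and the absence of a match says nothing of elements further away.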

How the data were processed

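Total RNA of whole retina was profiled in 2 knockout and 2 control pools. The authors deposited normalized log2 values for 21897 probe sets, and the log2 scale was taken from their range, since no source states it. Per the submitters' processing notes, affy and limma were used, with no version or role. The sources used here do not state how background was corrected or how arrays were normalized.

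Probe sets were named from the platform annotation: 20877 had 1 gene symbol, 175 several and 845 none. Gene IDs were checked against RefSeq (GRCm38.p6), where 36 were not matched and 0 symbols changed. The probe set with the highest mean stood for each of the 778 genes with several, which left 19421 genes, all tested with no filter on low signal. The genotypes were set against each other by lmFit and eBayes of limma 3.58.1 under R 4.3.3 (two-sided, genotype as the only term). A check on simulated data, drawn without sex or replicate structure, covered the sign and mean error of added changes. It set no limit on false calls. An exact permutation test of 2 against 2 arrays cannot go below p = 0.333. The pools came from different animals, so p-values rest in part on the spread between pools of the same genotype. Of the 6.17 degrees of freedom per gene, limma borrowed 4.17 from the variance of all genes. The spread within a genotype also includes sex, which moved with replicate number.

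The members and gene lists were chosen with earlier results of these data known. Besides the members and Nrl, the 2 genes with the smallest p in each list are named, with Stat3, Osmr, Cebpd, Glul, Rlbp1, Aif1, Ctss and Xist. Other named genes, among them Serpina3a and the neurofilaments, were chosen after their values were seen. Of 155 other listed genes, 135 were measured. The alternatives were a replicate block, quantile normalization, a filter on dim genes, a variance trend, other uses of probe sets and leaving out each array. Figures were drawn with matplotlib 3.10.9.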

Additional observations from a re-analysis of the deposited data

How the results depend on the processing

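The change of 9 of the 10 genes kept its direction under every alternative in which it was fitted, and Nes, at −0.24, lay between −0.57 and 0.09 with 1 array left out, at 0.094 without knockout replicate 2. Against 39 calls over all genes, of which 1 was a member, there were 8 and 0 with the replicate block, 89 and 2 without genes whose mean signal lay below the median (A2m and Serpina3n), and 128 and 4 with a variance trend (Vim, A2m, Serpina3n and Cp). With 1 array left out there were 0 to 11 calls and 0 to 0 members. The 0 calls came without either control array, where 1355 and 1328 genes had an unadjusted limma p under 0.05. A group left with 1 array is assumed to vary like the other, and the fit has fewer residual degrees of freedom. The replicate block takes up sex, which moved with replicate number, and also leaves fewer residual degrees of freedom. With it the limma adjusted p was 0.0623 for A2m and for Osmr, 0.0729 for Stat3 and for Tyrobp, 0.119 for Cebpd and 0.0539 for Ctss. These 6 calls were thus lost. The deviations of same-numbered arrays correlated at r = 0.239 over genes (0.142 without 5 sex-linked genes), while the labels state no pairing. Quantile normalization gave 46 calls, the mean of all probe sets 36, and separate tests of probe sets 38, with A2m called each time. Some named genes outside the members gained a call. With the variance trend the limma adjusted p was 0.00223 for Clu, 0.00972 for Crym, 0.0317 for Aif1 and 0.0167 for Serping1.

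The class difference, 0.46, lay between 0.29 and 0.63 with 1 array left out. It was 0.17 without Nes, 0.19 without A2m and Serpina3n, and −0.10 without all 3 genes, selections added after the data were seen. Without the dim genes, which removes Gfap, Nes, Lcn2, Timp1 and S1pr3, it was 0.56, from Vim against A2m, Serpina3n, Cp and Cd44. The sex-linked genes turned with the array left out, Xist between −3.21 and 3.38, Kdm5d between −2.09 and 1.49 and Uty between −2.38 and 2.56, since the group that loses an array then holds a pool of 1 sex and the other group 1 of each. The number of arrays and the dim signal of Nes and Timp1 limit what can be detected.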
